A study of Mus musculus with 6 samples.

Results

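The genes of the interleukin-1 (IL-1) family measured here are 10 ligands, inhibitors and receptors that were chosen by name for their roles: the ligands *Il1a*, *Il1b*, *Il33* and *Il18*, the inhibitors *Il1rn*, *Il1r2* and *Il18bp*, and the receptor chains *Il1r1*, *Il1rap* and *Il1rl1*. All 10 were found by NCBI gene number among the 17441 genes listed in at least 1 library. Their mRNA was measured by RNA-seq of mouse heart tissue from below the coronary ligature, in 3 groups of 2 libraries each. WT Sham were wild-type hearts 3 days after an operation without ligation, WT MI were wild-type hearts 3 days after ligation of the left coronary artery, and *Card9* KO MI were *Card9* knockout hearts 3 days after the same ligation. All mice were 12-week-old males, the knockout is on a C57BL/6 background, and the study used littermate and C57BL/6 controls. No knockout sham libraries were analysed here, so genotype cannot be told apart from infarction where *Card9* KO MI is set against WT Sham. Whether the 2 libraries of a group come from separate mice is not stated, so p-values measure the spread between these libraries, which may be technical.

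IL-1α and IL-1β bind IL1R1, which then recruits the accessory protein IL1RAP and signals through the adaptor MYD88 and the IRAK kinases to NF-κB. The receptor antagonist IL1RN occupies IL1R1 without signalling, and IL1R2 is a decoy that binds IL-1 but lacks the signalling domain. IL-33 is a nuclear alarmin of stromal cells that acts on ST2, the product of *Il1rl1*, again with IL1RAP, while IL-18 acts on its own receptor pair and is neutralised by IL18BP. In the infarcted heart, IL-1 from dying cells and infiltrating leukocytes drives early inflammation, and IL-33 with ST2 is studied as a stress pathway of the myocardium.

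Values are FPKM, that is mapped fragments scaled to gene length and library size. From the steps between low values the libraries held an estimated 3024500 to 4286000 fragments, so that 3 fragments on a gene of 2 kb equal 0.35 to 0.496 FPKM. Libraries of a group correlated at Pearson r of 0.98 across genes. *Card9*, the deleted gene, was listed at 0.99 and 1.03 FPKM in the sham libraries, 3.39 and 5.08 in those of WT MI, and 9.85 and 6.94 in the *Card9* KO MI libraries. The libraries labelled *Card9* KO MI thus did not show less of this mRNA (log2 fold change against WT MI 0.85, adjusted p = 0.112, limma), which leaves the genotype unchecked by this gene. Every direction given below for *Card9* KO MI against WT MI rests on the labels. The 10 cardiomyocyte markers together summed to between 26447 and 48879 FPKM, and were thus abundant in every library.

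Promoters of 4 members are shown here because these had the largest log2 fold changes after MI (*Il1b*, *Il1rn*, *Il33* and *Il1r2*). The sequences are the 250 bases before a transcription start in the RefSeq table of GRCm38.p6, a later build than the mm9 of the expression files, 5′ to 3′ on the strand of the gene. Capitals mark matches to one of 5 motifs: the κB pattern GGGNNNNNCC, AP-1 TGANTCA, ISRE (GAAA, any 2 bases, then GAAA) and C/EBP TTGCNNAA on both strands, and TATAAA on the gene strand. Where RefSeq has several starts, the start of the coordinates given is shown. *Il1b* is chr2:129371140-129371389, minus strand. *Il1rn* is chr2:24336610-24336859, plus strand. *Il33* is chr19:29945540-29945789, plus strand. *Il1r2* is chr1:40085843-40086092, plus strand.
Il1b: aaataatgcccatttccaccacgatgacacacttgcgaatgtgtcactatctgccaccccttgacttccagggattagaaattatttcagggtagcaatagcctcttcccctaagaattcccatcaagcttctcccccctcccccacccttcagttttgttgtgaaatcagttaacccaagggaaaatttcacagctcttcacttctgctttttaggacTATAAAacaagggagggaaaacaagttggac
Il1rn: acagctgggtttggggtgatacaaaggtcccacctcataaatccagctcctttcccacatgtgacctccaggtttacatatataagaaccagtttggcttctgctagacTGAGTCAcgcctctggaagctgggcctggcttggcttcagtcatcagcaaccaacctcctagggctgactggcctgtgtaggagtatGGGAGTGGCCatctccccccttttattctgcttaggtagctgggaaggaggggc
Il33: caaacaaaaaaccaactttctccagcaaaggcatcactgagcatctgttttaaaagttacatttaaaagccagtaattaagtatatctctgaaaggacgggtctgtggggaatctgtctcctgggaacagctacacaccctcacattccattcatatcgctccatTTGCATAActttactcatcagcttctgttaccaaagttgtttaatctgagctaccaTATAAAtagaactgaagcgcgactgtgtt
Il1r2: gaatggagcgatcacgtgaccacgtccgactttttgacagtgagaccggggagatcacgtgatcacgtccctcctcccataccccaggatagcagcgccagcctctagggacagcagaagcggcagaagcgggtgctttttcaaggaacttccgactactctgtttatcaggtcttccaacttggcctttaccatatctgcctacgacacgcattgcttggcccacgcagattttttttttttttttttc
The *Il1b* window held 1 match, TATAAA, starting 31 bases before the transcription start. The *Il1rn* window held an AP-1 and a κB match, and that of *Il33* a C/EBP match and TATAAA starting 29 bases before the start. The *Il1r2* window held no match, which says only that these letters are not in it. Over the 15 starts of the 10 genes, 4 held a κB match, 2 an AP-1 match (*Il1a* and *Il1rn*), 4 a C/EBP match, 4 TATAAA and 0 ISRE. Of all 32851 promoters of this length, 45.8% held κB, 6.75% AP-1, 2.98% ISRE, 9.56% C/EBP and 7.59% TATAAA. The members with a change thus share no single one of these motifs, and a match is a description of letters, not of a bound site.

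The infarcted WT hearts were compared with sham hearts to find which parts of the IL-1 system were raised 3 days after MI. In WT MI, mRNA of the ligands *Il1b*, *Il33* and *Il18*, of the antagonist *Il1rn*, of the decoy *Il1r2* and of the receptor chains *Il1r1* and *Il1rap* rose. *Il18bp* and *Il1rl1* were not called, and *Il1a* was too low to test. In limma with Benjamini-Hochberg adjustment over 13120 genes, 7 of the 9 tested members were called higher and 0 lower, where 27.7% of all tested genes were called higher and 9.39% lower. Over the 9 tested members the median log2 fold change was 1.41, and over all tested genes 0.19. Only *Il1r1*, *Il1rl1* and *Il18bp* reached 1 FPKM in both WT Sham libraries, so the other 6 entered the test through their MI libraries, and their count is a description. Scaling moved this balance: 3637 genes were called higher and 1232 lower as deposited, 2575 and 2206 after upper-quartile scaling, and 2291 and 2450 after quantile normalization, where the median of all tested genes was -0.08 and *Il18* was no longer called. In whole tissue, more cells of a type and more RNA per cell cannot be told apart.

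**Figure D1:**
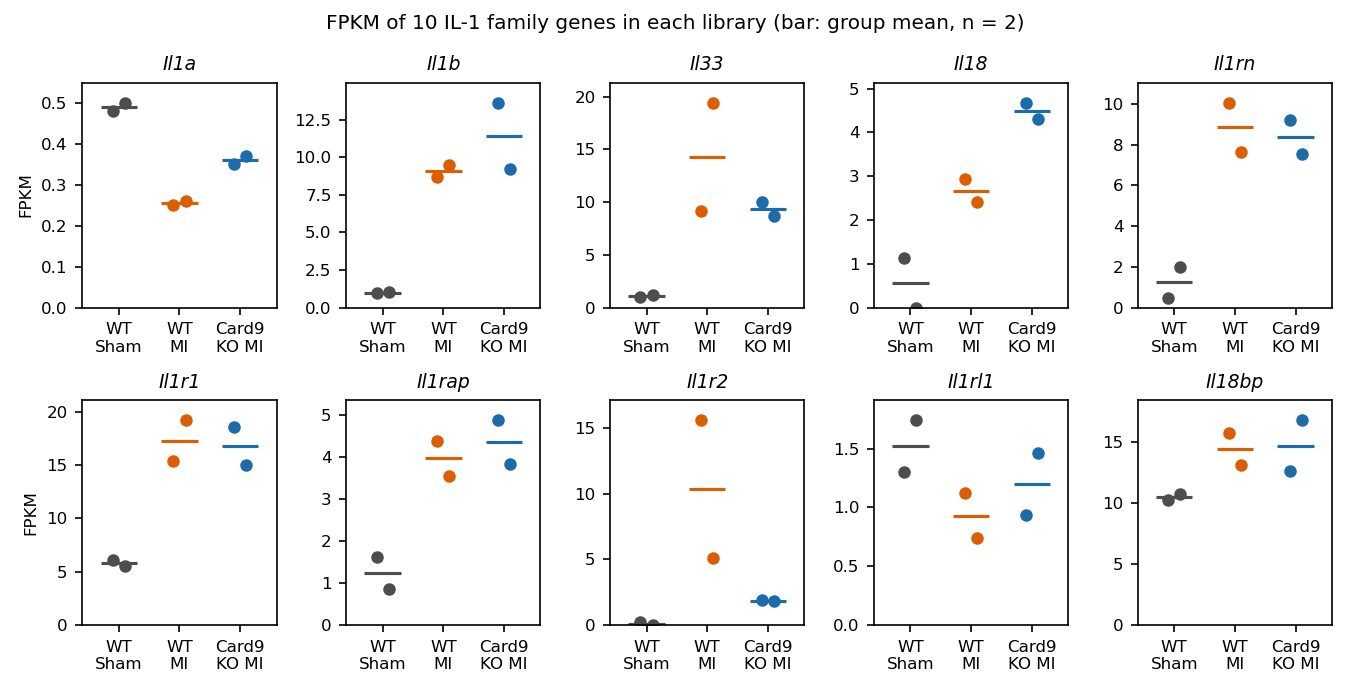
FPKM (y axis, each panel from 0) of the 10 IL-1 family genes by group (x axis), with a point for each library and a bar for the mean of 2 libraries. The MI libraries of both genotypes lie above both WT Sham libraries for *Il1b*, *Il33*, *Il18*, *Il1rn*, *Il1r1*, *Il1rap*, *Il1r2* and *Il18bp*, while *Il1a* stays at or below 0.5 FPKM in each library.

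Among the ligands, *Il1b* encodes the secreted IL-1β of activated myeloid cells (mm9 chr2:129190306-129196875, minus strand). It was measured at 0.96 and 1.0 FPKM in the WT Sham hearts, 8.65 and 9.47 in the WT MI hearts, and 13.6 and 9.2 in the *Card9* KO MI hearts. Both sham libraries, with about 4 fragments each, lay far below the 4 MI libraries. The log2 fold change of FPKM + 1 in WT MI against WT Sham was 2.34 (SE 0.198, adjusted p = 0.000155). In *Card9* KO MI against WT MI the difference was 0.28 (95% interval -0.18 to 0.74, adjusted p = 0.482) and the libraries of the genotypes overlapped. The 20 monocyte and macrophage markers summed to 464 and 397 FPKM in the sham libraries, 1535 and 1960 in those of WT MI, and 3108 and 2280 in the *Card9* KO MI libraries, and were highest in the same library as *Il1b*. *Lyz2* alone gave 1168 FPKM of that highest sum. In *Card9* KO MI against WT MI, 12 of the 20 stood apart and higher, and 2, *Lyve1* and *Cd163*, apart and lower. The others overlapped, with 5 means higher and 1 lower. Among all tested genes 30.8% stood apart and higher and 21.9% lower. By staining of the border region on the same day after MI, the study reports that macrophage recruitment was lower in knockout hearts. The macrophage marker sums here, from tissue below the ligature, ran the other way. The cause of this difference was not tested. The part of monocytes and macrophages in the *Il1b* level was not tested.

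*Il1a*, the gene of the IL-1α alarmin (chr2:129125346-129135708, minus strand), stayed at the limit of these libraries. It was listed at 0.48 and 0.5 FPKM in the WT Sham hearts, 0.25 and 0.26 in the WT MI hearts, and 0.35 and 0.37 in the *Card9* KO MI hearts. These correspond to about 3 fragments in each WT Sham and *Card9* KO MI library and 2 in each WT MI library. The groups do not overlap in FPKM, but their distance is about 1 fragment, and no fold is given at this level. *Il1a* also shares 222 exon bases with an antisense lincRNA, from which unstranded reads cannot be told apart.

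*Il33* (chr19:29999604-30035194, plus strand) had one of the largest changes of the members. Its level was 0.99 and 1.17 FPKM in the sham libraries, 9.14 and 19.4 in those of WT MI, and 9.96 and 8.65 in the *Card9* KO MI libraries. WT MI library 2 held more than the other 3 MI libraries, which lay close together. Against WT Sham the log2 fold change was 2.79 in WT MI (SE 0.299, adjusted p = 0.000401) and 2.31 in *Card9* KO MI. The difference between the genotypes, -0.48 (95% interval -1.18 to 0.21, adjusted p = 0.417), rested on WT MI library 2, without which it was 0.02. The 12 fibroblast markers summed to 1014 and 999 FPKM in the sham hearts, 1883 and 2395 in the WT MI hearts and 3518 and 3420 in the *Card9* KO MI hearts. Their sum was thus not highest in WT MI library 2, which held the most *Il33*, but the single markers differed. *Pdgfra* (15.87 FPKM) and *Dcn* (385.71 FPKM) were highest in that library, and the other markers of the list in other libraries. The part of fibroblasts in the *Il33* level was not tested.

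*Il18* encodes a precursor that caspase-1 cleaves (chr9:50383378-50389942, plus strand). It was measured at 1.12 and 0 FPKM in the WT Sham hearts, 2.93 and 2.41 in the WT MI hearts, and 4.67 and 4.3 in the *Card9* KO MI hearts. The groups did not overlap, and the knockout libraries were the highest. The annotated length is 702 bases. A search for the shortest length at which all its values came near whole fragments gave about 845 bases. Because the length was picked to make the values whole, their fit is no evidence for it. At that length WT Sham held 3 and 0 fragments, WT MI 10 and 8, and *Card9* KO MI 17 and 15. At equal depth the WT MI fragments were 4.7 times those of WT Sham (95% counting interval 1.37 to 24.9), an interval that covers counting error only. In limma the log2 fold change was 1.33 in WT MI (adjusted p = 0.0175) and 1.91 in *Card9* KO MI against WT Sham. The WT MI call was lost with 0.1 in place of 1 added (adjusted p = 0.0513), with quantile normalization (0.0591) or without either WT MI library. The difference between *Card9* KO MI and WT MI was 0.58 (95% interval -0.20 to 1.37, adjusted p = 0.385). *Casp1*, the gene of the cleaving enzyme, named after its values were seen, ran in the same order, at 2.28 and 1.52 FPKM in the sham libraries, 3.73 and 4.0 in those of WT MI, and 8.54 and 7.46 in the *Card9* KO MI libraries.

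Of the inhibitors, *Il1rn* (chr2:24192373-24207014, plus strand) encodes the receptor antagonist. Its level was 0.48 and 2.01 FPKM in the WT Sham hearts, 10.05 and 7.64 in the WT MI hearts, and 9.2 and 7.54 in the *Card9* KO MI hearts. The sham libraries differed from each other, at about 4 and 15 fragments, but both lay below each MI library. The log2 fold change in WT MI against WT Sham was 2.21 (SE 0.321, adjusted p = 0.00159), and between the genotypes it was -0.07 (95% interval -0.81 to 0.68, adjusted p = 0.938). The antagonist and *Il1b* rose to like levels: the ratio of *Il1rn* to *Il1b* FPKM was 1.16 and 0.807 in the WT MI hearts and 0.677 and 0.82 in the *Card9* KO MI hearts. In WT Sham it was 0.5 and 2.01, each resting on few fragments. The groups overlapped in this ratio.

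*Il1r2*, the decoy receptor (chr1:40141613-40182064, plus strand), was the member with the largest log2 fold change between the genotypes. It was measured at 0.23 and 0 FPKM in the sham libraries, 15.59 and 5.09 in those of WT MI, and 1.9 and 1.8 in the *Card9* KO MI libraries. WT Sham held about 1 fragment in all, WT MI about 110 and *Card9* KO MI about 21 (estimated from the annotated length). The WT MI libraries differed 3-fold between themselves, and both lay above the *Card9* KO MI libraries, which were alike. At equal depth the WT MI fragments were 86.2 times those of WT Sham, with a counting interval of 15.2 to 3440 because the sham count is 1. The log2 fold change in WT MI against WT Sham was 3.18 (SE 0.419, adjusted p = 0.00102) and ranged from 1.50 with 5 added to 5.63 with 0.1 added.

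*Il1r2* in *Card9* KO MI was lower than in WT MI by a log2 fold change of -1.82 (SE 0.419, 95% interval -2.79 to -0.85), but with an adjusted p of 0.0831 in limma it was not called. Without WT MI library 2 it was called, at -2.54 (adjusted p = 0.0377), and without WT MI library 1 it was -1.10 (adjusted p = 0.289). Against WT Sham, *Il1r2* in *Card9* KO MI was called higher (1.36, adjusted p = 0.0289), a call lost in 7 of 15 alternatives. The decoy stood against its signalling counterpart *Il1r1* at a ratio of FPKM of 1.01 and 0.265 in the WT MI hearts and 0.102 and 0.12 in the *Card9* KO MI hearts. In WT Sham the ratio was 0.0376 in one library, and in the other *Il1r2* was not listed.

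Neutrophils, which are known to carry the decoy, had markers that moved with *Il1r2*. The 16 listed of 18 neutrophil markers summed to 11.7 and 7.55 FPKM in the WT Sham hearts, 282.9 and 132.9 in the WT MI hearts, and 88.2 and 64.1 in the *Card9* KO MI hearts. WT MI library 1 was thus the highest both for *Il1r2* and for the sum of these markers. Of the 16 markers, 13 were lower in both *Card9* KO MI libraries than in both WT MI libraries. Among all tested genes the share that stood apart and lower was 21.9%. The 13 include *Ltf* and *Wfdc21*, which failed the filter, so the 2 shares are not over like sets. Of the 12 tested markers, 9 entered the test through their MI libraries, so these counts are a description. Some markers were apart by little, such as *Mmp8*, at 4.13 FPKM in WT MI library 2 and 4.06 in *Card9* KO MI library 1. The defining markers *Ly6g* and *Camp* were not listed in any library. Of the 12 markers tested, 1, *Mmp9*, was called lower in the *Card9* KO MI hearts (-2.05 on the log2 scale, adjusted p = 0.0451), beside 0.587% of all tested genes. The study also measured *Mmp9* in macrophages, so it does not mark neutrophils alone. By staining of the border region on the same day after MI, the study reports that fewer neutrophils were recruited in knockout hearts. The neutrophil marker sums here ran in the same direction. The part of neutrophil number in the *Il1r2* level was not tested.

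**Figure D2:**
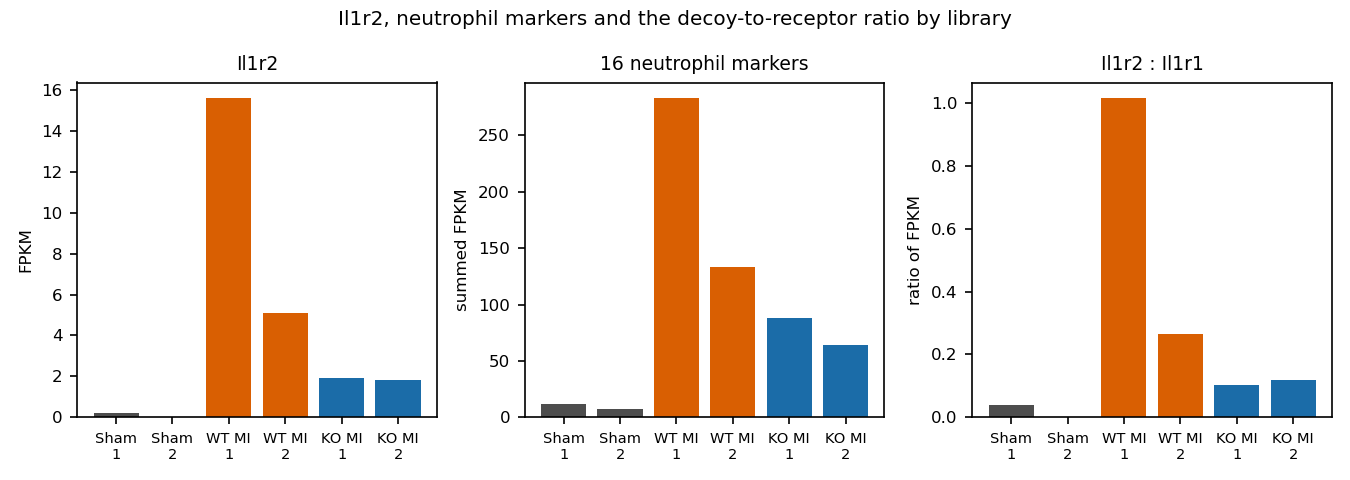
*Il1r2* FPKM (left), the summed FPKM of 16 neutrophil markers (middle) and the ratio of *Il1r2* to *Il1r1* FPKM (right) in each library, grey for WT Sham, orange for WT MI and blue for *Card9* KO MI, all from 0. WT MI library 1 is highest in each panel, and no ratio is drawn for the WT Sham library in which *Il1r2* was not listed.

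*Il18bp*, the gene of the IL-18 binding protein (chr7:109163593-109166669, minus strand), was the most abundant member in sham hearts. It was measured at 10.31 and 10.75 FPKM in the sham libraries, 15.77 and 13.16 in those of WT MI, and 12.68 and 16.81 in the *Card9* KO MI libraries. Each MI library lay above both sham libraries. The log2 fold change was 0.42 in WT MI against WT Sham (95% interval 0.04 to 0.80, adjusted p = 0.0796), and 0.44 in *Card9* KO MI against WT Sham (adjusted p = 0.0569), neither of which was called. Between the genotypes it was 0.02 (95% interval -0.36 to 0.40, adjusted p = 0.966), and the libraries overlapped. The binding protein exceeded its ligand in each library in which *Il18* was listed. The ratio of *Il18bp* to *Il18* FPKM was 9.21 in one WT Sham library, 5.38 and 5.46 in the WT MI hearts and 2.72 and 3.91 in the *Card9* KO MI hearts, so that the MI libraries of the 2 genotypes did not overlap. This ratio was not tested.

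Of the receptor chains, *Il1r1* (chr1:40281925-40373043, plus strand) encodes the signalling receptor of IL-1 and was the member with the highest mean in both MI groups. Its level was 6.12 and 5.58 FPKM in the WT Sham hearts, 15.37 and 19.19 in the WT MI hearts, and 18.56 and 15.01 in the *Card9* KO MI hearts. The sham libraries lay well below the MI libraries, which overlapped between genotypes. The log2 fold change was 1.41 in WT MI against WT Sham (SE 0.16, adjusted p = 0.000524) and -0.04 in *Card9* KO MI against WT MI (95% interval -0.41 to 0.33, adjusted p = 0.926).

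*Il1rap* (chr16:26581790-26730203, plus strand) encodes the accessory chain shared by IL1R1 and ST2. It was measured at 1.63 and 0.86 FPKM in the sham libraries, 4.4 and 3.55 in those of WT MI, and 4.88 and 3.84 in the *Card9* KO MI libraries. It rose in WT MI against WT Sham by a log2 fold change of 1.16 (SE 0.232, adjusted p = 0.00657), a call lost without WT MI library 1 (adjusted p = 0.0535). Between genotypes the difference was 0.11 (95% interval -0.43 to 0.65, adjusted p = 0.846). *Il1r1* exceeded *Il1rap* in all 6 libraries, at ratios of FPKM between 3.49 and 6.49 that overlapped between the groups. An antisense transcript shares 552 exon bases with *Il1rap*, and the 2 cannot be told apart without strand.

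*Il1rl1* (chr1:40486415-40522260, plus strand) encodes ST2, of which a membrane-bound and a soluble form are known, and these values do not separate them. It was measured at 1.3 and 1.74 FPKM in the WT Sham hearts, 1.12 and 0.74 in the WT MI hearts, and 0.94 and 1.46 in the *Card9* KO MI hearts. The WT MI libraries lay just below the sham libraries, and those of *Card9* KO MI overlapped both groups. The log2 fold change was -0.39 in WT MI against WT Sham (95% interval -0.95 to 0.18, adjusted p = 0.252) and 0.19 in *Card9* KO MI against WT MI (adjusted p = 0.724). Set against its ligand, the ratio of *Il1rl1* to *Il33* FPKM was 1.31 and 1.49 in the sham libraries, 0.123 and 0.0381 in those of WT MI, and 0.0944 and 0.169 in the *Card9* KO MI libraries. The 2 sham libraries stood above the 4 MI libraries in this ratio, which was not tested.

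The order of mean levels changed with MI. In WT Sham, *Il18bp* (10.5 ± 0.311 FPKM, SD, n = 2) and *Il1r1* (5.85 ± 0.382) stood above the other 8 members, which had means of at most 1.52 and overlapped from one neighbour to the next, apart from *Il1r2*, the lowest. In WT MI, *Il1r1* (17.3 ± 2.7), *Il18bp* (14.5 ± 1.85), *Il33* (14.3 ± 7.25) and *Il1r2* (10.3 ± 7.42) led, followed by *Il1b* (9.06 ± 0.58) and *Il1rn* (8.85 ± 1.7), and each of these 6 overlapped its neighbours in the order. *Il1rap* (3.98 ± 0.601), *Il18* (2.67 ± 0.368), *Il1rl1* (0.93 ± 0.269) and *Il1a* (0.255 ± 0.0071) came below them without overlap. In *Card9* KO MI, *Il1r2* had moved to the eighth place, at 1.85 ± 0.0707, and *Il18* (4.49 ± 0.262) and *Il1rap* (4.36 ± 0.735) overlapped.

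Libraries labelled *Card9* KO MI were compared with WT MI to find members that differ between the genotypes after MI. Without knockout sham libraries, a difference present before MI cannot be told apart from an altered response to it. In limma, 0 of the 9 tested members were called in either direction, where 0.816% of all tested genes were called higher and 0.587% lower. At an unadjusted p below 0.05 the count was 1, *Il1r2*, where 2629 of all 13120 tested genes were below it. No other tool was run. The libraries of the genotypes did not overlap for *Il18*, which was higher in *Card9* KO MI, and *Il1r2*, which was lower, while 7 of the 9 overlapped. Among all tested genes the libraries stood apart for 30.8% higher and 21.9% lower. Over the 9 tested members the median log2 fold change was 0.02, and over all tested genes 0.05. An interval that includes 0 does not show equal levels.

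**Figure D3:**
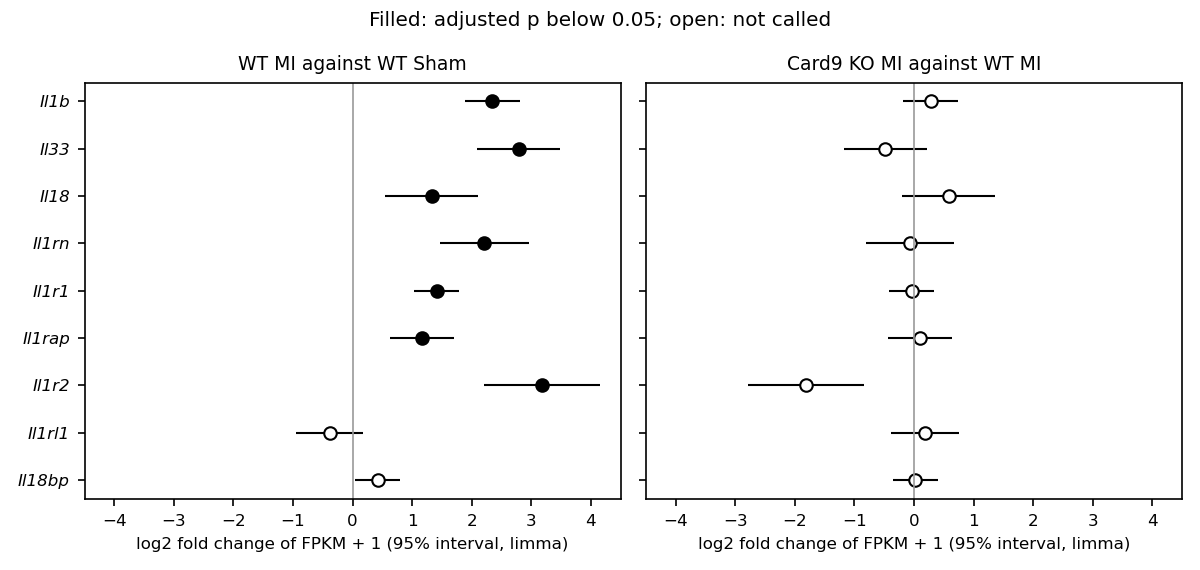
Log2 fold change of FPKM + 1 (x axis) with its 95% interval from limma for the 9 tested members (y axis), in WT MI against WT Sham (left) and *Card9* KO MI against WT MI (right). Filled points have an adjusted p below 0.05: 7 on the left and 0 on the right, where *Il1r2* at -1.82 is the member farthest from 0.

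Against WT Sham, *Il1b*, *Il33*, *Il18*, *Il1rn*, *Il1r2*, *Il1r1* and *Il1rap* were called as raised in the hearts labelled *Card9* KO MI, and *Il18bp* and *Il1rl1* (-0.20, adjusted p = 0.525) were not called. There 7 of the 9 tested members were called higher and 0 lower, with 34.8% of all tested genes called higher and 14.3% lower. Of these members, 6 entered the test through their MI libraries, so this count too is a description. *Il1b* rose by a log2 fold change of 2.62 (adjusted p = 5.35e-05). The values were 2.15 for *Il1rn*, 1.37 for *Il1r1* and 1.27 for *Il1rap*, all called. This comparison shares its sham libraries with that of WT MI, so the counts of both are not independent.

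The remaining genes of the family were fixed as a list of 11. *Il36g*, an epithelial ligand of the family, was measured at 0.73 and 0.55 FPKM in the WT Sham hearts, 3.22 and 1.85 in the WT MI hearts, and 1.78 and 1.31 in the *Card9* KO MI hearts. *Il1rl2*, the gene of its receptor, was at 0.32 and 0.85 FPKM in the sham libraries, 2.41 and 2.61 in those of WT MI, and 4.17 and 3.11 in the *Card9* KO MI libraries. Both were called higher in WT MI against WT Sham, with log2 fold changes of 1.08 (adjusted p = 0.0137) and 1.17 (adjusted p = 0.00748). They lay below 1 FPKM in each sham library and entered the test through their MI libraries, so these calls are a description. Neither gene was called between the genotypes. *Sigirr*, an inhibitory receptor, lay between 1.79 and 2.31 FPKM in all 6 libraries and was not called. The IL-18 receptor chain *Il18r1* was listed at 0.68 to 1.17 FPKM and its partner *Il18rap* at 0 and 0.13 FPKM in WT Sham and 0.51 to 1.18 in the MI libraries, and both failed the filter. *Il1f10*, *Il36a*, *Il36b*, *Il1rapl1* and *Il1rapl2* were not listed, and *Il36rn* was matched to no gene number.

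Of 18 genes that make or release active IL-1, 14 were tested and 13 called higher and 0 lower in the WT MI hearts. Their median log2 fold change was 0.88, where 27.7% of all tested genes were called higher and the median of all was 0.19. Of the 14, 11 reached 1 FPKM in both sham libraries and 3 entered the test through their MI libraries. Among those that rose were the caspases *Casp8* (log2 fold change 1.48) and *Casp4* (1.34) and *Nlrp3*, the inflammasome sensor (1.21). *Nlrp3* was measured at 0.31 and 0.57 FPKM in the WT Sham hearts, 2.8 and 1.88 in the WT MI hearts, and 1.49 and 1.97 in the *Card9* KO MI hearts. The neutrophil proteases *Elane* and *Ctsg* were not listed. A further one, *Prtn3*, failed the filter. It was at 0 FPKM in both sham libraries, 0.26 and 0.79 in those of WT MI, and 1.2 and 0.25 in the *Card9* KO MI libraries. Between the genotypes 0 of the 14 were called, where 0.816% of all tested genes were called higher and 0.587% lower. At an unadjusted p below 0.05 there were 2, where 2629 of all 13120 tested genes were below it.

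In the signalling chain behind the receptor, 7 of 20 tested genes were called higher in WT MI and 0 lower, to be read against the 27.7% of all tested genes, with a median log2 fold change of 0.14. The 4 largest changes were those of *Myd88*, the receptor adaptor (1.20), *Irak3*, a kinase-like inhibitor of the chain (1.15), *Irak4*, the first kinase (1.14), and *Rela*, the NF-κB subunit (0.64). *Myd88* lay at 6.34 and 6.95 FPKM in the sham libraries, 15.25 and 17.91 in those of WT MI, and 22.09 and 17.17 in the *Card9* KO MI libraries. Between the genotypes 0 of the 20 were called, where 0.816% of all tested genes were called higher and 0.587% lower.

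Genes known to be induced by IL-1 were higher in WT MI in 17 of 18 tested cases, with a median log2 fold change of 2.34. The largest were *Lcn2* (6.08), which encodes a protein that binds iron carriers, and the chemokine genes *Ccl2* (4.67), *Ccl7* (4.26) and *Cxcl5*, the last listed at 0 in both sham libraries and at 12.9 and 16.05 FPKM in WT MI. Of the 18, 7 had less than 1 FPKM in at least 1 sham library and entered the test through their MI libraries, so this count, set beside 27.7% of all tested genes, is a description. Most of these genes also answer to other inflammatory signals. In *Card9* KO MI against WT MI, 2 of the 18 were called lower and 0 higher, with a median of -0.24. Of all tested genes 0.587% were called lower and 0.816% higher, and their median was 0.05. *Lcn2*, which the study followed up from these samples and which is therefore no independent evidence, was at 268.76 and 203.93 FPKM in the WT MI hearts and 6.98 and 7.27 in the *Card9* KO MI hearts (a log2 fold change of -4.86, with an adjusted p = 0.000201). *Mmp3*, a matrix protease, was at 14.0 and 14.37 FPKM in the WT MI hearts and 4.12 and 3.78 in the *Card9* KO MI hearts (-1.62, adjusted p = 0.0171).

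**Figure D4:**
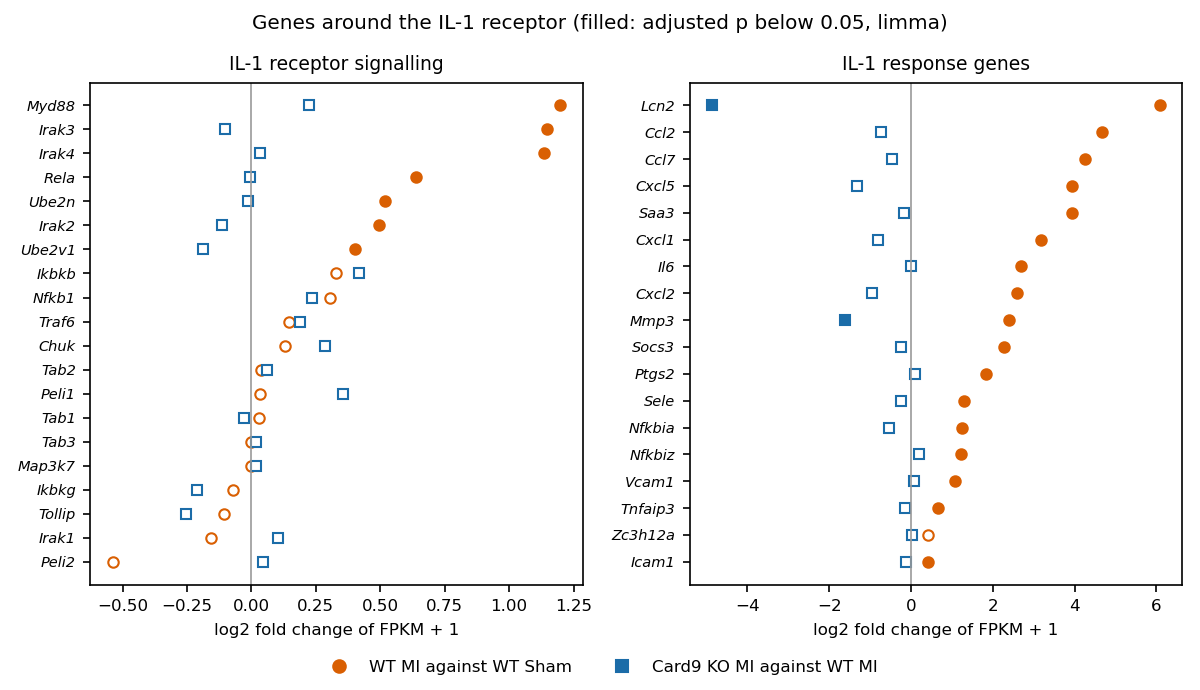
Log2 fold change of FPKM + 1 (x axes) of the tested genes (y axes) in 2 lists, receptor signalling (left) and IL-1 response genes (right), orange circles for WT MI against WT Sham and blue squares for *Card9* KO MI against WT MI, filled where the adjusted p was below 0.05. Filled circles number 7 of 20 and 17 of 18 in the panels, and the filled squares are *Lcn2* and *Mmp3*.

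Downstream of IL-33, the type 2 cytokine genes *Il4* and *Il13* were not listed in any library, and *Il5* was listed in 1, at 0.61 FPKM. Of 5 tested genes of this list of 11, 3 rose in WT MI: *Chil3* (log2 fold change 6.03), *Arg1* (5.86) and *Mrc1* (1.49), all of which macrophages also express. Of these 5 and of the 3 tested genes downstream of IL-18, 3 and 2 entered the test through their MI libraries. Their counts, beside 27.7% of all tested genes called higher in WT MI, are a description. *Arg1* was at 90.27 and 86.3 FPKM in the WT MI hearts and 47.43 and 44.34 in the *Card9* KO MI hearts (-0.93, adjusted p = 0.0213). *Chil3* was at 86.47 and 57.22 FPKM in the WT MI hearts and 13.71 and 12.11 in the *Card9* KO MI hearts (-2.36, adjusted p = 0.00729). Thus 2 of the 5 were called lower between the genotypes, beside 0.587% of all tested genes. Downstream of IL-18, *Ifng* was listed in 1 library, at 0.21 FPKM. Of 3 tested genes of that list of 8, *Cxcl10* (log2 fold change 1.72) and *Gzmb*, listed at 0 in both sham libraries and at 1.58 and 2.89 FPKM in WT MI, rose and *Cxcl9* (-0.72) fell, and 0 were called between the genotypes.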

How the data were processed

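Libraries were assigned to groups by their labels. The authors isolated RNA (TRIzol), selected mRNA with oligo(dT), prepared libraries with a kit that does not mark strand, sequenced them on an Illumina HiSeq instrument and mapped filtered reads to mm9 with BWA and Bowtie2, as named in the submitters' processing notes. They deposited 1 FPKM value per NCBI gene number, to 2 decimals, for genes above 0. The gene annotation and the strand setting are not given in the sources used here. Since FPKM divides by gene length and library size, a change of abundant genes shifts all others.

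Unlisted genes were set to 0. Symbols were matched for 17390 gene numbers through a RefSeq table of GRCm38.p6, and 51 had none. Positions and lengths are from GENCODE on mm9. limma 3.58.1 in R 4.3.3 (lmFit, eBayes with trend) was fitted to log2(FPKM + 1) of the 13120 genes with at least 1 FPKM in at least 2 libraries, with the 3 groups in one fit and Benjamini-Hochberg adjustment. Calls have an adjusted p below 0.05. An exact permutation test of 2 against 2 libraries cannot go below p = 0.333 and was not run. The fit was tested on simulated data. Tables and plots were made in Python 3.11.15 with pandas 2.3.3, scipy 1.17.1 and matplotlib 3.10.9.

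Counts were not rebuilt over all genes. With depths estimated from the steps between low values, only 74.0% to 77.9% of the values came out whole within 0.15 fragments. For *Il18* and *Il1r2* alone, estimated fragments were rounded to whole numbers and used for the fragment ratios. The *Il18* length was found by a search, and the *Il1r2* length is the annotated one. Intervals of fragment ratios are exact binomial ones at 95% and cover counting error only. Replicate numbers did not pair libraries (correlations of deviations from -0.008 to 0.02 across genes).

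The members and the gene lists were chosen with earlier results of these data known. All members were named, with the listed family genes and the 4 largest called changes per list. Mmp9 was named as a gene close to Il1r2 in pattern. Unlisted genes, single-library genes, Casp1, Prtn3 and other single cell type markers were named after their values were seen. Some genes that this rule would name are not reported here. Alternatives were another added FPKM, other filters, 3 other scalings, eBayes without trend, a replicate block, only the groups compared, only genes listed in all libraries, and each library left out.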

Additional observations from a re-analysis of the deposited data

How the results depend on the processing

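Over 441 recomputed values of 27 results, 413 kept their direction and their side of the threshold, 12 lost a call, 3 gained one and 13 changed sign. With a mean FPKM of at least 5 the members called higher in WT MI against WT Sham fell to 4, since only 5 members were then tested. Of members called lower in *Card9* KO MI against WT MI, leaving out 1 library gave 0 to 1, the latter *Il1r2* without WT MI replicate 2. The lost calls were those of *Il1r2* in *Card9* KO MI against WT Sham, *Il18* and *Il1rap* in WT MI against WT Sham. *Il18bp* in *Card9* KO MI against WT Sham was called with a mean FPKM of at least 5 (adjusted p = 0.0457) and without *Card9* KO MI replicate 1 (0.0318). The cause was not tested.

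The sign changes all concern differences between *Card9* KO MI and WT MI that were not called. Quantile normalization gave -0.001 for *Il1rap* and -0.035 for *Il18bp*, upper-quartile scaling -0.016 and scaling without the 100 most abundant genes -0.001 for *Il18bp*. Leaving out 1 library gave -0.244 to 0.111 for *Il1rn*, -0.19 to 0.112 for *Il1r1*, -0.034 to 0.246 for *Il1rap*, -0.988 to 0.02 for *Il33* and -0.172 to 0.209 for *Il18bp*. Adding 1 FPKM to both genes of a ratio moved the mean log2 ratio of *Il1r2* to *Il1r1* in *Card9* KO MI from -3.17 to -2.63, of *Il1rl1* to *Il33* there from -2.99 to -2.24, and of *Il1r1* to *Il1rap* there from 1.95 to 1.73. For *Il18bp* to *Il18* in WT MI it moved from 2.44 to 2.07, and with 0.1 added to 2.39.

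With the replicate block the members called were 7, 0 and 7 higher in the 3 comparisons, and *Il1r2* between the genotypes stayed at -1.82 (adjusted p = 0.0862); it changed no call of a member. Over all genes it called 45 higher and 26 lower in *Card9* KO MI against WT MI, against 107 and 77 without it, and without the filter the calls were 7 and 5. Over all alternatives these counts ranged from 3 to 200 higher and from 5 to 136 lower. Scaling sets the balance of calls: in WT MI against WT Sham, 3637 genes were higher and 1232 lower as deposited, 2575 and 2206 after upper-quartile scaling and 2291 and 2450 after quantile normalization, and the median of all tested genes moved from 0.19 to -0.08. In the comparison of *Card9* KO MI with sham hearts the calls were 4569 and 1875, 3195 and 2925, and 2836 and 3447. Depth limits *Il1a*, *Il18* and the sham level of *Il1r2*, which rest on few fragments.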

Other observations

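*Il1r2*, *Il1r1*, *Il1rl2*, *Il1rl1*, *Il18r1* and *Il18rap* lie within 467 kb of mouse chromosome 1 (mm9 chr1:40141613-40608550). In WT MI against WT Sham, *Il1r2*, *Il1r1* and *Il1rl2* were called higher, *Il1rl1* between them and the IL-18 receptor genes was not called, and *Il18r1* and *Il18rap* were below the filter. These neighbours thus had unlike values in the same hearts.

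Genes closest to a member in pattern over the 6 libraries, by Pearson r on log2(FPKM + 1) among about 4660 genes, are given as a description, since the 6 values mostly hold 1 contrast of sham with MI and points share their library. For *Il1r2* they were *Mmp9* (0.997), *Hk1* (0.996) and *Prg4* (0.992). For *Il1r1* the second was *Casp4* (0.998), and for *Il1rap* the closest was *Plekho1* (0.998). *Il1rl1*, which did not follow the other members, was closest to *Ctla4* (0.972).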
